A study of Homo sapiens with 6 samples.

Results

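The Krüppel-like factors (KLFs) are transcription factors that bind GC-rich and CACCC-type DNA through zinc fingers at the end of the protein. In this work 10 of them, KLF2, KLF3, KLF4, KLF5, KLF6, KLF7, KLF9, KLF10, KLF11 and KLF13, were examined in DMS53 cells with and without enforced ONECUT2 (OC2) expression. All 10 were found by gene symbol among the 62696 genes of the count files. DMS53 is an established small cell lung cancer (SCLC) line with neuroendocrine (NE) features. The control libraries come from cells transduced with the empty lentiviral vector pLenti-C-mGFP-P2A-Puro, and the OC2-OE libraries from cells that carry a constitutive, mGFP-tagged OC2 vector. Both were selected with puromycin, and each group has 3 libraries, numbered 1 to 3. A single line was used. The study calls the sequencing experiments of a condition independent, but the labels do not say whether the libraries of a group came from separate cultures or transductions, so p-values measure the spread between these libraries, which may be technical.

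KLF proteins fall into classes by the partners they recruit. KLF3 binds the corepressor CtBP and silences genes. KLF2, KLF4, KLF5, KLF6 and KLF7 mostly activate genes with the help of acetyltransferases, and KLF9, KLF10, KLF11 and KLF13 bind the corepressor SIN3. In epithelia the balance between members is known to go with growth arrest on one side and proliferation on the other, and KLF4 is widely known as a reprogramming factor.

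The libraries held between 16533284 and 19099337 counted read pairs, with a median of 17496272. ONECUT2 checks the labels and was counted 394 to 465 times in control and 68853 to 74031 times in OC2-OE libraries. Of 17307 genes that passed edgeR's filter on low counts, 56.5% had an adjusted p under 0.001, the threshold of the study, with 27.8% higher and 28.7% lower in OC2-OE cells. The NE markers SYP, CHGA, INSM1, NCAM1, DDC and UCHL1 were detected in every library, with summed levels of 2474 to 2488 CPM in control and 2032 to 2054 CPM in OC2-OE libraries. By edgeR's test 2 of these 6 were higher in OC2-OE cells (log2 fold changes of 1.06 for CHGA and 0.41 for UCHL1) and 4 were lower (-2.52 for DDC, -2.00 for NCAM1, -1.93 for INSM1 and -0.44 for SYP). CPM are read pairs per 1000000 pairs of TMM-normalized library size. Of the defining genes of other cell types, PTPRC of immune cells had 0 counts in control and 3 in OC2-OE cells, the T cell gene CD3E had 0 in all libraries, and the endothelial gene TEK had 2 and 0. Also on the endothelial list, VWF went the other way, with 1 count in control and 17 counts in OC2-OE cells. PECAM1 did not pass, with a log2 fold change of 0.02. KDR had the highest control level on this list and went from 10.6 ± 1.32 to 1.55 ± 0.227 CPM (SD, n = 3). Its log2 fold change was -2.77 (adjusted p = 1.37e-33 by edgeR). The summed levels over 5 genes each ranged from 12.7 to 15.1 CPM in control against 4.17 to 4.73 CPM in OC2-OE libraries for endothelial genes, from 22.1 to 25.2 against 27.8 to 31.1 CPM for fibroblast genes, and from 3.69 to 4.24 against 7.16 to 9.0 CPM for immune genes. Of the 5 genes of each list, 2 endothelial genes passed as lower, 1 fibroblast gene passed in each direction, and 2 immune genes (LYZ and CD14) passed as higher by edgeR's test. LYZ, with 10, 5 and 6 counts in control and 42, 32 and 48 counts in OC2-OE libraries, passed the filter on low counts only through the group where it is high, and so did CDH5 among the endothelial genes. The same holds for PDGFRA, the fibroblast gene that passed as lower, with 29, 22 and 32 counts in control and 4, 7 and 6 counts in OC2-OE libraries. The part of these cell types in the results was not tested, and fewer cells of a type and less RNA per cell cannot be told apart in bulk RNA.

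Of the 10 members, KLF4 and KLF9 rose, by 2.7-fold and 2.87-fold, and KLF10, KLF13 and KLF6 fell by smaller amounts. For 9 of the 10 the counts passed the filter on low counts. Among these, 2 were higher and 3 lower in OC2-OE cells at an adjusted p under 0.001 (edgeR's quasi-likelihood test), and 4 did not pass. This share of called genes, 5 of 9, is near the 56.5% of all genes tested. The median log2 fold change of the 9 genes was -0.04, against 0.01 over all tested genes, and the values ran from -0.45 to 1.52. Both rises exceeded 2-fold. Changes past the threshold and beyond 2-fold were found in 2 of 9 members and 17.3% of all genes tested, which splits into 2 members higher (8.29% of all genes) and 0 lower (9.04%). At an adjusted p under 0.05 by edgeR, 6 of 9 members passed, beside 71.4% of all genes tested. For 7 of the 9 the libraries of the groups did not overlap, as for 73.2% of all genes tested.

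**Figure D1:**
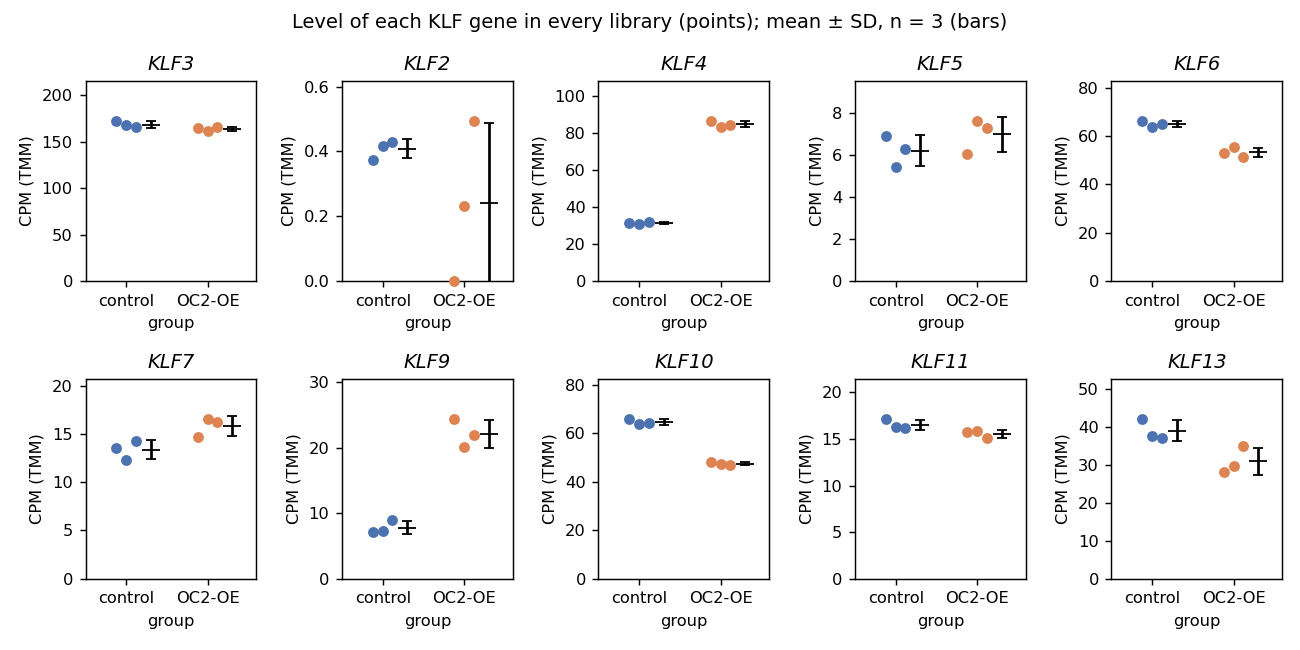
Level of each of the 10 KLF genes in CPM on a linear axis that starts at 0, with 3 control libraries in blue, 3 OC2-OE libraries in orange, and the mean and SD of each group as black bars. The OC2-OE libraries of KLF4 lie between 83.2 and 86.4 CPM and those of KLF9 between 20.1 and 24.4 CPM, above every control library, while the libraries of KLF3, KLF5 and KLF2 overlap between the groups.

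KLF3 (ENSG00000109787.13), the CtBP-binding repressor, lies on chromosome 4 of GRCh38 from 38664197 to 38701517 and was among the steadiest members. Control libraries had 172, 168 and 165 CPM and OC2-OE libraries 164, 162 and 166 CPM. The ranges overlap between 165 and 166 CPM. The log2 fold change was -0.04 (standard error 0.030, adjusted p = 0.238 by edgeR), and its sign depended on the normalization, with a value of 0.012 when counts were scaled by library size only.

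KLF4 (ENSG00000136826.15) is a zinc finger activator known from epithelial differentiation, the endothelium and the induction of pluripotency. It lies on the minus strand of chromosome 9 from 107484852 to 107490482. Its level was 31.3, 31.0 and 31.9 CPM in control replicates 1, 2 and 3, and 86.4, 83.2 and 84.4 CPM in OC2-OE replicates 1, 2 and 3. Every OC2-OE library was far above every control library, and the spread within each group was small. The group means were 31.4 ± 0.458 and 84.6 ± 1.65 CPM (SD, n = 3), or 1.43 on the log2 scale (standard error 0.047, adjusted p = 2.50e-55 by edgeR's quasi-likelihood test). In size this change exceeded 89.6% of the absolute changes of all tested genes.

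Among the other activators, KLF6 (ENSG00000067082.15), a factor known from wound responses and as a candidate tumor suppressor, lies on chromosome 10 from 3775996 to 3785281. It had 66.2, 63.6 and 64.9 CPM in control libraries and 52.9, 55.4 and 51.5 CPM in OC2-OE libraries. All 3 OC2-OE libraries were below all 3 control libraries. Its mean went from 64.9 ± 1.31 to 53.3 ± 1.96 CPM (SD, n = 3), a 1.22-fold fall (log2 fold change -0.29, standard error 0.045, adjusted p = 1.18e-08 by edgeR). KLF6 is known to have splice forms with different activity, and the counts sum over all of them.

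KLF7 (ENSG00000118263.16), known from axon growth and sensory neurons, lies on chromosome 2 from 207074137 to 207173856. Its control libraries had 13.5, 12.3 and 14.3 CPM and its OC2-OE libraries 14.7, 16.6 and 16.2 CPM. The groups were separated only by the narrow gap between control replicate 3 and OC2-OE replicate 1. The log2 fold change of 0.24 (standard error 0.086) did not reach the threshold (adjusted p = 0.00853 by edgeR). KLF5 (ENSG00000102554.14), known to drive proliferation in intestinal crypts, lies on chromosome 13 from 73054976 to 73077541. It had 6.90, 5.44 and 6.27 CPM in control and 6.05, 7.62 and 7.30 CPM in OC2-OE libraries. These ranges overlap, and the log2 fold change was 0.16 (standard error 0.13, adjusted p = 0.243 by edgeR).

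KLF2 (ENSG00000127528.6), on chromosome 19 from 16324826 to 16328685, is known from lung development, flow-exposed endothelium and quiescent T cells. It was close to the limit of detection and could not be tested. Each control library held 7 counts, and the OC2-OE libraries held 0, 4 and 9 counts. The 0 counts of OC2-OE replicate 1 allow a level of up to 0.156 CPM, taken as 3 counts of that library. The ratio of OC2-OE to control over all libraries was 0.585, with a 95% counting interval of 0.269 to 1.22, and a difference was not detectable at this depth. When the filter on low counts was left out, its adjusted p was 0.364 by edgeR. The pseudogene KLF2P1, to which reads of KLF2 could be assigned, had 4, 6 and 3 counts in control and 7, 5 and 5 counts in OC2-OE libraries, so the value of KLF2 is uncertain for that reason too.

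KLF9 (ENSG00000119138.5), a small SIN3-binding factor known to be induced by glucocorticoids and thyroid hormone, also lies on chromosome 9, on the minus strand from 70384604 to 70414657. Control libraries had 7.17, 7.23 and 8.92 CPM. OC2-OE libraries had 24.4, 20.1 and 21.9 CPM. The groups were separate, with a wider spread than for KLF4, on 400 counts in control and 1216 counts in OC2-OE libraries. The means were 7.77 ± 0.991 and 22.2 ± 2.15 CPM (SD, n = 3), and the log2 fold change was 1.52 (standard error 0.092, adjusted p = 5.15e-31 by edgeR). KLF9 had the largest log2 fold change of the 9 tested members, and it differed from that of KLF4 by less than its standard error.

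The promoter windows of KLF4 and KLF9 are shown because these are the members that moved by more than 2-fold. Each is the RefSeq window (GRCh38.p14) from 250 bases before to 50 bases after 1 annotated start, written 5′ to 3′ along the gene, and other starts of the gene were not searched. Capitals mark a match to any of the motifs searched on both strands. These were ATCAAT (the core that ONECUT factors bind), CACCC and GGGCGG (KLF and SP sites), TGACTCA (AP-1), TGACGTCA (CRE) and the MEF2 motif. The first window lies at chr9:107489720-107490019 and the second at chr9:70414608-70414907, both on the minus strand.
KLF4: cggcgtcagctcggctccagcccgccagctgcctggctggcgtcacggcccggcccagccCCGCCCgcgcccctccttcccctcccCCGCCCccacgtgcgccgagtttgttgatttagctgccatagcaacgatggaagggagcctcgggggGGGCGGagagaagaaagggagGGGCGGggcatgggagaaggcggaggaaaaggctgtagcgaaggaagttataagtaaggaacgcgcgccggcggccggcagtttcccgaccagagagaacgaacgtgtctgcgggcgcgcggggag
KLF9: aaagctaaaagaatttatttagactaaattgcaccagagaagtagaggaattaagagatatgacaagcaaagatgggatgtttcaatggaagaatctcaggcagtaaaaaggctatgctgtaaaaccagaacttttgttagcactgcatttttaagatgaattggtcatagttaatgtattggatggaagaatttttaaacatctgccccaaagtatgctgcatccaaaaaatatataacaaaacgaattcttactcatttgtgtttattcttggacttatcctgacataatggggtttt
The KLF4 window has a GC content of 69.0% and 4 matches to GGGCGG, starting 190, 164, 97 and 76 bases before the annotated start. The KLF9 window has a GC content of 32.7% and a match to none of the motifs, so its letters are all in lower case. The median GC content over all promoter windows is 58.3%.

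Windows were at hand for 8 of the 10 members, all but KLF3 and KLF10. ATCAAT was in 0 of these 8 windows, and in 6.40% of 27305 windows of the same length. GGGCGG was in 5 of the 8 (44.6% of all windows), with 6 matches in KLF2, 3 in KLF13 and 2 each in KLF6 and KLF11 beside the 4 in KLF4. CACCC was in the windows of KLF5, KLF7 and KLF13 (58.9% of all windows). The MEF2 motif was in the KLF2 window, 120 bases before its start, and in 3.09% of all windows. Neither TGACTCA (4.92% of all windows) nor TGACGTCA (1.98%) was found in the 8 windows. These matches are letters in a window, not measured sites.

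KLF10 and KLF11, also SIN3-binding members, were both found as genes induced early by TGF-beta. KLF10 (ENSG00000155090.15) lies on chromosome 8 from 102648784 to 102655725 and had 65.9, 63.9 and 64.1 CPM in control and 48, 47.4 and 47.0 CPM in OC2-OE libraries. The groups were clearly separate and the libraries within each were close together. Its mean went from 64.7 ± 1.12 to 47.5 ± 0.488 CPM (SD, n = 3), a 1.36-fold fall (log2 fold change -0.45, standard error 0.046, adjusted p = 4.86e-16 by edgeR), the lowest value of the 9 tested members. KLF11 (ENSG00000172059.11), on chromosome 2 from 10042849 to 10054836, had 17.2, 16.3 and 16.2 CPM in control and 15.7, 15.8 and 15.1 CPM in OC2-OE libraries. Its groups did not overlap, but the difference was small and did not pass (log2 fold change -0.09, standard error 0.081, adjusted p = 0.306 by edgeR).

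KLF13 (ENSG00000169926.11), known as an activator of the chemokine gene CCL5 in T cells, lies on chromosome 15 from 31326835 to 31435665. It had 42.2, 37.8 and 37.1 CPM in control libraries and 28.2, 29.7 and 35.1 CPM in OC2-OE libraries. OC2-OE replicate 3 came close to the lowest control library. The mean fell from 39.0 ± 2.80 to 31.0 ± 3.60 CPM (SD, n = 3), a 1.26-fold difference (log2 fold change -0.34, standard error 0.061, adjusted p = 1.50e-06 by edgeR). Leaving out 1 library at a time, its log2 fold change ran from -0.43 to -0.26 and its highest adjusted p was 0.000405 by edgeR. CCL5 itself had 0 counts in control and 1 count in OC2-OE libraries.

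**Figure D2:**
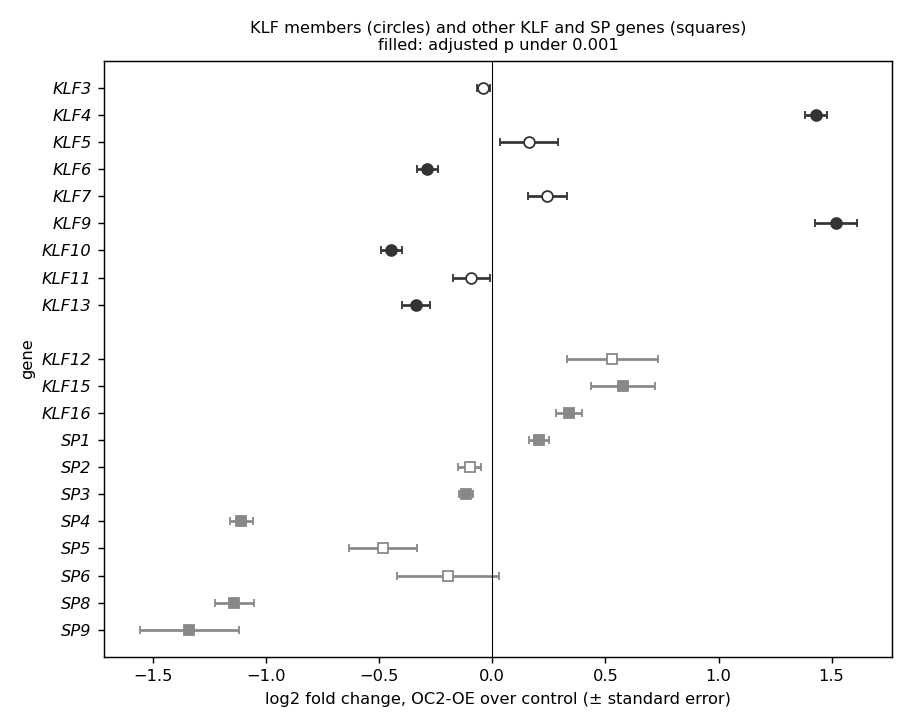
Log2 fold change of OC2-OE over control with its standard error for the 9 tested KLF members (circles) and the 11 tested other KLF and SP genes (squares), filled where the adjusted p was under 0.001. KLF4 at 1.43 and KLF9 at 1.52 stand to the right of all the others, and SP4, SP8 and SP9, at -1.11, -1.14 and -1.34, to the left.

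Levels of different genes were compared as CPM per kilobase of annotated exon. This length counts every annotated exon once, so genes with long alternative ends are scaled down. In control cells the order was KLF3 (24.9), KLF10 (16.9), KLF6 (10.6), KLF4 (8.58), KLF13 (4.14), KLF11 (3.60), KLF5 (1.69), KLF9 (1.49), KLF7 (1.39) and KLF2 (0.145). The ranges over libraries overlapped between KLF5 and KLF9 and between KLF9 and KLF7, and no other neighbours in this order overlapped. In OC2-OE cells KLF4, at 23.1 ± 0.449 CPM per kilobase (SD, n = 3), stood directly below KLF3 at 24.2 ± 0.330 (SD, n = 3), and KLF10 followed at 12.4. KLF9 moved up to the fifth place with 4.26, above KLF11 (3.38) and KLF13 (3.29), whose ranges overlapped. KLF5 (1.90) and KLF7 (1.65), whose ranges overlapped too, and KLF2 (0.0857) had the lowest levels.

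The sum of the 10 per-length levels was 75.1, 72.1 and 73.0 in control and 83.3, 82.4 and 83.3 in OC2-OE libraries. All OC2-OE sums were above all control sums. KLF4 made up 11.4%, 11.7% and 11.9% of this sum in control libraries and 28.3%, 27.6% and 27.6% in OC2-OE libraries. The share of KLF10 went from a mean of 23.1% to 15%, that of KLF6 from 14.4% to 10.5%, and that of KLF9 from 2.04% to 5.13%. KLF3 kept the largest share, with means of 33.9% and 29.2%. A share depends on all members at once, and the fall in the share of KLF3 goes with a level that overlaps between the groups. No test was made on the shares.

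**Figure D3:**
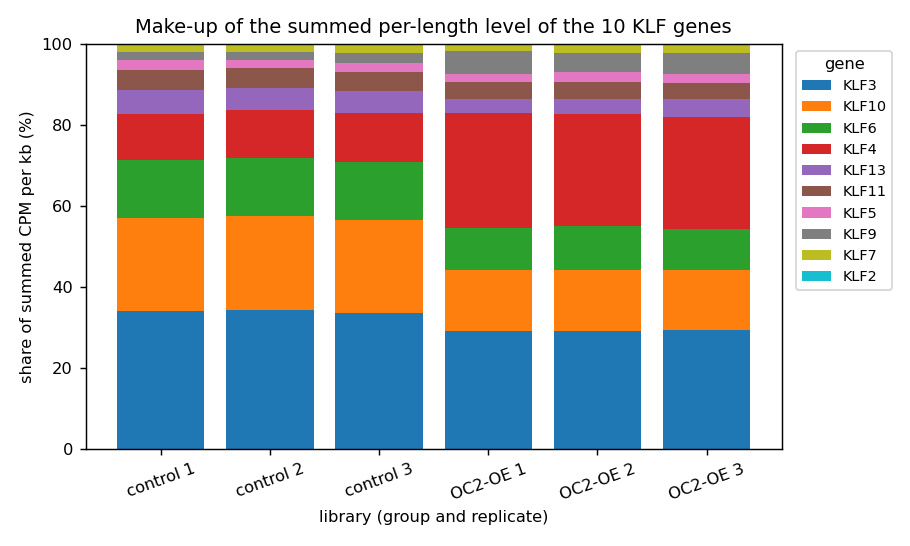
Share of each of the 10 KLF genes in their summed CPM per kilobase, in percent, for each of the 6 libraries. KLF4 (red) takes 11.4% to 11.9% in control and 27.6% to 28.3% in OC2-OE libraries, and the bands of KLF10 and KLF6 are narrower in OC2-OE libraries.

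The rest of the family and the related SP factors were described by a list of 17 genes, of which 11 could be tested. At an adjusted p under 0.001 by edgeR 3 were higher and 4 lower, beside 27.8% and 28.7% of all genes tested, and their median log2 fold change was -0.12. SP4, a factor known from neurons, had 67.2 ± 1.12 CPM in control and 31.1 ± 2.13 CPM in OC2-OE cells (SD, n = 3), or -1.11 on the log2 scale (standard error 0.051). SP8 and SP9, known from limb and forebrain development, had log2 fold changes of -1.14 and -1.34, with summed counts of 1013 and 184 in control and 487 and 77 in OC2-OE libraries. The falls beyond 2-fold on this list were in SP genes, and no tested KLF gene fell by as much.
SP1 and SP3, the broadly expressed members of the SP group, had log2 fold changes of 0.21 and -0.12. The value of SP3 passed the threshold (adjusted p = 0.000544 by edgeR) but lost it in 8 of 15 alternatives. These were scaling by library size only or by the upper quartile, the DESeq2 Wald test, no filter, at least 10 counts in every library, and leaving out control replicate 1 or OC2-OE replicates 1 or 3, with adjusted p of up to 0.049. KLF16 and KLF15 rose by 0.34 and 0.58 on the log2 scale. KLF15, a metabolic factor known to be induced by glucocorticoids, had 3.64, 4.60 and 4.61 CPM in control and 6.26, 6.0 and 6.81 CPM in OC2-OE libraries, with no overlap. Without control replicate 1, without OC2-OE replicate 3 and with the DESeq2 Wald test it no longer passed, with adjusted p over all alternatives of up to 0.00541 by edgeR or DESeq2. KLF12, SP2, SP5 and SP6 did not pass, with log2 fold changes of 0.53, -0.10, -0.48 and -0.20. KLF8, a CtBP-binding relative of KLF3, was too low for the test, with 2, 1 and 2 counts in control and 12, 5 and 7 counts in OC2-OE libraries. The ratio was 4.53 with a 95% counting interval of 1.70 to 15.2, and without the filter its adjusted p was 0.0113 by edgeR. KLF1 and KLF14 had 11 and 6 counts in control and 4 and 16 counts in OC2-OE libraries, and KLF17, KLF18 and SP7 had none.

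Genes that act with or on KLF proteins were described through lists written from general knowledge. Among 11 cofactors, SIN3B rose and HDAC2 fell, with log2 fold changes of 0.48 and -0.45, and in all 2 were higher, 3 lower and 6 did not pass, with a median of 0.04. Of all genes tested 56.5% were called, and the median was 0.01. The CtBP genes that KLF3, KLF8 and KLF12 need did not pass in the comparison of all libraries, with log2 fold changes of 0.05 for CTBP1 and 0.02 for CTBP2. Without control replicate 3, CTBP1 passed with an adjusted p of 0.000559 by edgeR. KAT2B, an acetyltransferase, had a log2 fold change of 0.46 and was called with all libraries (adjusted p = 0.000765 by edgeR), but lost the call without control replicates 1 or 3 and without any of the 3 OC2-OE replicates, as well as with the DESeq2 Wald test, limma voom, no filter and the replicate block, and its adjusted p over the alternatives ran from 0.000204 to 0.0107.
Of 7 ubiquitin ligases known to act on KLF proteins, 2 were lower (28.7% of all genes tested) and 1 higher (27.8%), with a median of 0.11. FBXW7, which marks KLF2 and KLF5 for degradation, had 42.2 ± 2.96 CPM in control and 26.8 ± 1.06 CPM in OC2-OE cells (SD, n = 3), or -0.66 on the log2 scale (standard error 0.058). FBXO32, a ligase reported for KLF4, had 128 ± 0.964 CPM in control and 75 ± 1.24 CPM in OC2-OE cells (SD, n = 3), or -0.77 on the log2 scale (standard error 0.036). The levels of both ligases were lower in every OC2-OE library than in every control library. ITCH had a log2 fold change of 0.23, and lost the call without control replicate 2 or OC2-OE replicate 3 and with the DESeq2 Wald test, where its adjusted p was up to 0.00606 by edgeR or DESeq2 over the alternatives.

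The kinase ERK5 and the MEF2 factors are known to induce KLF2 and KLF4. On a list of 7 genes of this axis, 0 were higher and 1 was lower (edgeR, adjusted p under 0.001), beside 56.5% of all genes tested that were called in either direction, with a median log2 fold change of 0.08. DESeq2 and limma voom also called 0 as higher, and 3 were higher at an unadjusted p under 0.05 by edgeR. MEF2D was the gene that fell, with 71.5, 73.4 and 71.7 CPM in control and 59.1, 54.6 and 53.9 CPM in OC2-OE libraries, or -0.37 on the log2 scale (standard error 0.044). MEF2C, the gene of this list with the largest change, had 63 counts in control and 118 counts in OC2-OE libraries with no overlap, and its log2 fold change of 0.82 (standard error 0.25) did not pass (adjusted p = 0.00247 by edgeR). MAPK7, which encodes ERK5, had a value of 0.24 that did not pass (adjusted p = 0.00570 by edgeR). Over the alternatives its adjusted p ran from 0.000864 to 0.0629, and it passed when counts were scaled by library size only. MAP3K3 passed as lower only without OC2-OE replicate 1, with an adjusted p of 0.000333 by edgeR and a log2 fold change of -0.38, against -0.27 with all libraries.

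KLF9 and KLF15 are known glucocorticoid-induced genes, so receptors, enzymes and common targets of this hormone were listed beside them. Of 9 genes tested out of 10, 4 were higher and 2 lower, with a median log2 fold change of 0.23, and the share called among all genes tested was 56.5%. SGK1 rose from 2.03, 2.03 and 1.54 CPM in control to 6.0, 5.83 and 6.26 CPM in OC2-OE libraries, or 1.68 on the log2 scale (standard error 0.17). HSD11B2, the enzyme that inactivates cortisol, had a log2 fold change of 1.07, and ZBTB16 of -1.96 on 111 counts in control and 14, 7 and 9 counts in OC2-OE libraries. ZBTB16 passed the filter on low counts only through the control libraries, and was not tested when at least 10 counts were required in every library. NR3C1, the glucocorticoid receptor gene, which was picked out after its values were seen, had 163 ± 5.91 CPM in control and 124 ± 4.05 CPM in OC2-OE cells (SD, n = 3), and its log2 fold change was -0.40. FKBP5 and TSC22D3, common glucocorticoid targets also picked out afterwards, had log2 fold changes of 0.35 and 0.44. For FKBP5 the call was lost without OC2-OE replicate 2, with an adjusted p of 0.00141 by edgeR. The targets PER1 and DUSP1 did not pass in the main fit, with log2 fold changes of -0.11 and 0.12 (adjusted p = 0.0691 and 0.00246 by edgeR). DUSP1 passed when counts were scaled by library size only or by the upper quartile, and without OC2-OE replicate 2. The genes of this list that passed moved in both directions.

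Of 11 genes of the TGF-beta axis, through which KLF10 and KLF11 are known to be induced, 10 were tested, 3 higher and 4 lower (27.8% and 28.7% of all genes tested), and the median of the list was -0.02 on the log2 scale. TGFB1, TGFB2 and TGFB3 encode the ligands and moved farthest. TGFB1 had 60.9, 60.5 and 60.1 CPM in control and 110.5, 117 and 115 CPM in OC2-OE libraries, a log2 fold change of 0.91. TGFB2 and TGFB3 had values of -2.99 and -1.78. SMAD7, an inhibitor of the pathway that KLF10 is reported to repress, had a log2 fold change of -0.66 and is also on the list of KLF targets. SMAD4 rose by 0.12 on the log2 scale (adjusted p = 0.000664 by edgeR) and lost the call without control replicates 2 or 3 and without OC2-OE replicates 2 or 3, as well as with the DESeq2 Wald test and limma voom, with an adjusted p of up to 0.00870 over the alternatives by edgeR, limma or DESeq2.

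**Figure D4:**
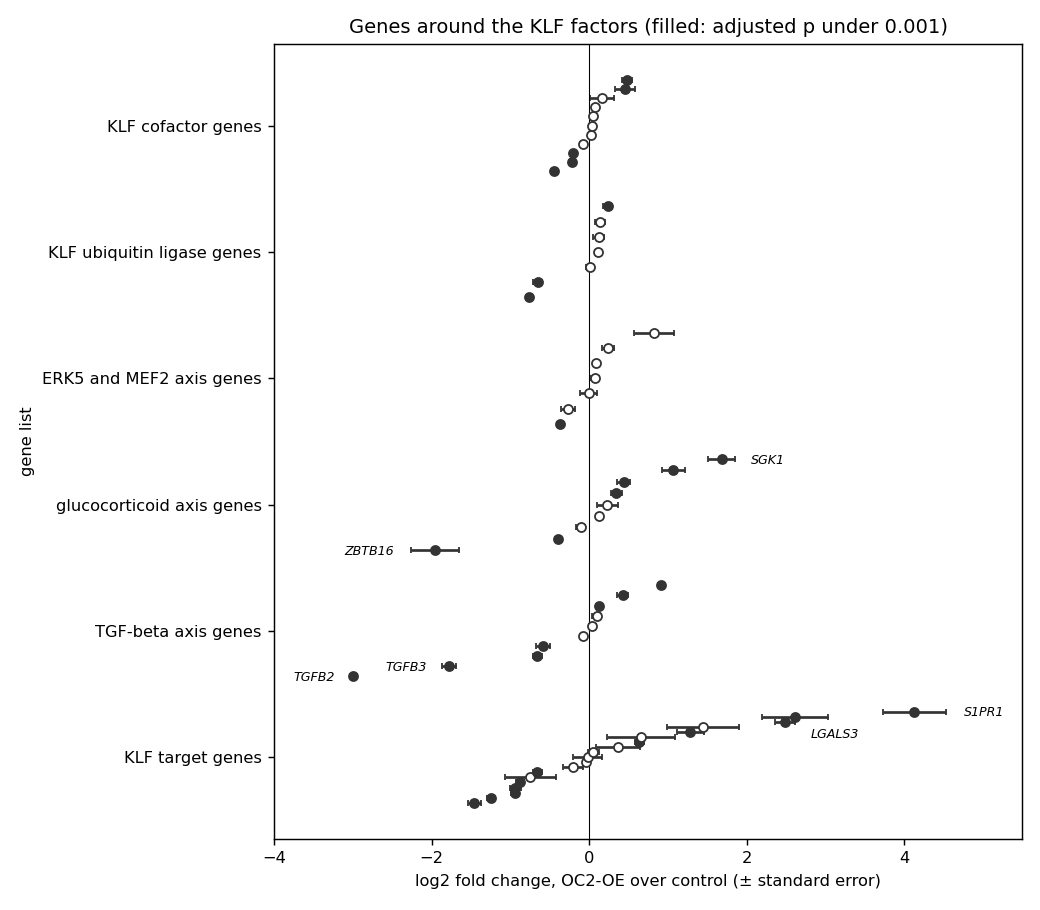
Log2 fold change of OC2-OE over control with its standard error for every tested gene of 6 lists around the KLF factors, filled where the adjusted p was under 0.001, with the names of some genes whose change exceeded 1.6 in size and passed. The lists hold filled points on both sides of 0, except the ERK5 and MEF2 list, where MEF2D at -0.37 is the only filled point.

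Genes reported as direct targets of 1 or more of the 10 members were described last. Of 25 such genes, 19 were tested, 5 higher and 6 lower, with a median log2 fold change of -0.02. This share of called genes, 11 of 19, is near the 56.5% of all genes tested. S1PR1, which KLF2 is known to activate in T cells, had 2, 2 and 3 counts in control and 55, 38 and 43 counts in OC2-OE libraries. The ratio of the summed counts, scaled by library size, was 18.4 with a 95% counting interval of 8.67 to 46.5, and the gene passed the filter on low counts only through the OC2-OE libraries. Its fitted change, as plotted with the gene lists, depends on the prior count and is no bound. KLF2 itself had at most 9 counts in any library, and of the T and immune cell genes CD3E had 0 counts throughout while CD14 was higher in OC2-OE cells. The part of other cells in this rise was not tested. LGALS3, a gene that KLF3 is reported to repress, had 2.52, 3.17 and 2.46 CPM in control and 16.3, 14.9 and 14.5 CPM in OC2-OE libraries (log2 fold change 2.49), while the level of KLF3 overlapped between the groups. CDKN1A, a cell cycle inhibitor that KLF4 and KLF6 are known to activate, had 79.3 ± 1.86 CPM in control and 41.1 ± 1.27 CPM in OC2-OE cells (SD, n = 3), and its log2 fold change was -0.95, with KLF4 higher and KLF6 lower. CCND1, reported as activated by KLF5, had a log2 fold change of -1.24, and MAOA, a target of KLF11, of -1.46. CDKN1A, CCND1 and MAOA were picked out after their values were seen. No test linked a target to its factor.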

How the data were processed

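Total RNA was sequenced as stranded poly(A) libraries. Per the file headers, the authors counted read pairs on the exons of each gene of GENCODE release 42 (GRCh38) with featureCounts version 1.6.0, taking strand into account, after alignment with STAR version 2.7.9a per the submitters' processing notes. The deposited counts are not normalized or filtered. Gene symbols were matched by Ensembl identifier without its version for 62625 of 62696 genes. Counts were filtered with filterByExpr, normalized with TMM and tested with the quasi-likelihood test of edgeR version 4.0.16 in R version 4.3.3, with robust dispersions, no replicate term and Benjamini-Hochberg adjustment over 17307 genes, at the study's threshold of 0.001. Standard errors were derived from each log2 fold change and its F statistic (|log2 fold change|/√F). The steps were tested on simulated data. Counting intervals are exact binomial and, like the limit of 3 counts, cover counting error only. Between libraries of the same group, counts varied 1.32 to 2.09 times as much as sampling alone gives, so no library was a copy of another.

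The members and gene lists were chosen with earlier results of these data known. The genes named are all members, every other tested KLF or SP gene, the 3 genes of each other list with the largest absolute change among those past the threshold, genes that overlap a member and KLF pseudogenes with counts, and any other gene was picked after its values were seen. Some genes of the lists are not reported here. Promoter windows come from RefSeq (GRCh38.p14). Protein sequences were not used here. Alternatives changed the scaling (DESeq2 size factors, total counts, upper quartile), the tool (DESeq2 version 1.42.0 with its Wald test, voom in limma version 3.58.1), the filter (none, or a minimum of 10 in each library), the genes (without ONECUT2), the model (a term for replicate numbers), the libraries (dropping 1 at a time) and the threshold (adjusted p under 0.05, or changes beyond 2-fold only).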

Additional observations from a re-analysis of the deposited data

How the results depend on the processing

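For the 9 tested members, 133 of 135 fold changes under 15 other fits kept their direction and side of the threshold. The exceptions were KLF3, with log2 fold changes of 0.012 by library size only and 0.0039 by upper-quartile normalization. Over these fits KLF4 ran from 1.42 to 1.48, KLF9 from 1.45 to 1.62, KLF10 from -0.46 to -0.39, KLF6 from -0.31 to -0.24 and KLF13 from -0.43 to -0.26. With a change beyond 2-fold required, 0 members were lower.

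Of 244 list counts under the alternatives, 225 stayed within 1.5 times. Cofactors higher were 1 with the DESeq2 Wald test, limma voom, no filter and the replicate block, and 1 to 2 with a library left out. Ubiquitin ligases higher were 2 by library size only and upper-quartile normalization, 0 with DESeq2, and 0 to 1 with a library left out. ERK5 and MEF2 genes higher were 2 by library size only and 1 by upper-quartile normalization, and those lower were 1 to 2 with a library left out. With at least 10 counts in every library, where fewer genes were tested, 1 glucocorticoid gene was lower and 3 KLF targets were higher. The cause of the other changes was not tested. The difference in the summed share of KLF5 was -0.0051 percentage points and ran from -0.13 to 0.15 with a library left out.

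Replicate numbers did not pair the libraries: deviations of same-numbered libraries correlated at -0.00079, 0.018 and 0.013, and not every library correlated best with its own number. The replicate block called 9681 of 17898 genes tested, against 9776 of 17307 in the main fit, and changed the call of no member. Scaling by library size moved the median of all genes from 0.0071 to 0.058 on the log2 scale. Depth limits KLF2, KLF1, KLF8, KLF14, S1PR1 and MYOSLID.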

Other observations

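Transcripts that overlap the KLF genes were also counted. MYOSLID, a long noncoding RNA gene on the strand opposite to KLF7 and within its span, had 1, 2 and 2 counts in control and 38, 32 and 30 counts in OC2-OE libraries. The ratio of the summed counts, scaled by library size, was 18.9 with a 95% counting interval of 7.83 to 59.4, and the gene passed the filter on low counts only through the OC2-OE libraries. Every OC2-OE library was above every control library, while KLF7 itself changed by 0.24 on the log2 scale and did not pass. The counting used the strand, so reads of MYOSLID are kept apart from those of KLF7. KLF3-AS1, which overlaps KLF3 on the opposite strand, had 81, 65 and 76 counts in control and 93, 69 and 67 counts in OC2-OE libraries, with a log2 fold change of -0.04 (adjusted p = 0.834 by edgeR). The remaining transcripts that overlap a member had at most 2 counts in any library. Of the KLF pseudogenes, KLF2P1 had 30 counts over the 6 libraries, and the others at most 4 each.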
